A study of Arabidopsis thaliana with 3 samples.

Results

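Plants sense oxygen through the stability of a small family of transcription factors, the group VII ethylene response factors (ERF-VIIs). Their proteins begin with methionine and cysteine. The methionine is removed, plant cysteine oxidases (PCOs) use molecular oxygen to oxidise the exposed cysteine, arginyl transferases (ATE) add arginine, and the ubiquitin ligase PRT6 marks the protein for the proteasome, a route called the N-degron pathway. When oxygen is short the factors persist and switch on genes of fermentation and, among others, PCO1 and PCO2, whose products act back on the factors. Transcript levels of 10 genes of this system are described here, of 27416 genes measured. They are RAP2.2, RAP2.3, RAP2.12, HRE1 and HRE2, the 5 ERF-VIIs of Arabidopsis, with PRT6, PCO1, PCO2, ADH1 (alcohol dehydrogenase) and PDC1 (pyruvate decarboxylase). The genes were taken by their locus identifiers, and all 10 are in the files.

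The samples were whole seedlings of wild-type Arabidopsis thaliana, genotype Col-0, at 3 weeks of age, kept on MS plates under long days (light for 16 h, dark for 8 h) at 23 ± 2 °C. The 3 libraries form 1 group and are numbered 4, 5 and 6, in a series whose title concerns N6-adenine methylation of DNA. The labels name no treatment and no oxygen level, and do not say whether the libraries came from separate plants, so the spread between them may be technical. The values were deposited without a unit and are taken here as FPKM, that is reads relative to gene length and library total. The library totals recovered from the values were 19921241, 19905762 and 19892527 reads. Levels can thus be set side by side between genes, but no condition can be compared.

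As for the tissue, a gene counts as detected if each library gives it 1 FPKM or more. Of 4 shoot markers 3 were detected, the photosynthesis genes RBCS1A and LHCB1.3 (10938 and 13523 FPKM) and the stomatal gene FAMA (18.03 FPKM), and the trichome gene GL1 (0.829 FPKM) was not. Of 6 root markers, 2 (CASP1 and IRT1) were detected, and PIN2, COBL9, EXPA7 and MYB36 were not. The root list summed to between 7.51 and 8.71 FPKM per library. None of 3 floral markers was detected. In whole seedlings, fewer cells of a type and less RNA per cell cannot be told apart.

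The feature that puts the ERF-VIIs under oxygen control lies at the start of their coding sequences. The first 30 coding bases are shown with the start codon and the second codon in capitals, read 5′ to 3′ on the coding strand from RefSeq's TAIR10.1.
RAP2.12: ATGTGTggaggagctataatatccgatttc
RAP2.2: ATGTGTggaggagctataatctccgatttc
RAP2.3: ATGTGTggcggtgctattatttccgattat
HRE1: ATGTGCggaggagctgtaatttccgattac
HRE2: ATGTGTgggggagctatcatttctgatttc
HRE1, alternative start: ATGTCTcaaagctttgaactttatccatgg

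The second codon was a cysteine codon, TGT or TGC, in all 5 genes. Of these 30 bases RAP2.2 shared 29 with RAP2.12, HRE1 and HRE2 shared 26 each, and RAP2.3 shared 24. The windows lie at chr1:20135242-20135271 for RAP2.12 (plus strand), chr3:4738971-4739000 for RAP2.2 (minus strand), chr3:5705784-5705813 for RAP2.3 (plus strand), chr1:27241904-27241933 for HRE1 (plus strand) and chr2:19503461-19503490 for HRE2 (minus strand). HRE1 has 3 annotated coding models, and 1 of them starts downstream at chr1:27242142-27242171 with a second codon, TCT, that is not cysteine. The gene level values do not tell the models of HRE1 apart.

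Among 26710 nuclear genes of the files with an annotated coding sequence, 276 (1.03%) had a model with cysteine as the second codon. A model that encodes the same first 5 residues as RAP2.12 was found in 5 of the 26710, and these were the 5 ERF-VIIs. The next codon is gta in HRE1 and ata in RAP2.12, which encode different residues, so a longer comparison would leave HRE1 out. A cysteine codon also comes second in models of a further pair of known oxygen-dependent substrates of the pathway, VRN2, a Polycomb protein of the vernalization response, and ZPR2, a small regulator of leaf formation in the shoot meristem. In VRN2 this holds for 1 of 2 annotated models, and the other, which starts at chr4:9477246-9477275, has GTA, which is not a cysteine codon.
VRN2: ATGTGTaggcagaattgtcgcgcgaaatcc
ZPR2: ATGTGTctgacaacttcagagccaccattc

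These starts (chr4:9476708-9476737, plus strand, and chr3:22497413-22497442, minus strand) had 12 and 14 of 30 bases identical to that of RAP2.12, the start and second codons included. VRN2 stood at 9.13 ± 0.807 FPKM (SD, n = 3) and ZPR2 at 2.04 ± 0.327 FPKM.

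The 10 genes spanned more than 3 orders of magnitude. The 3 RAP2 factors were high, PRT6 was moderate, and the genes known to be induced by low oxygen (HRE1, HRE2, PCO1, PCO2, ADH1 and PDC1) were low. By that threshold 6 of the 10 members were detected, RAP2.2, RAP2.3, RAP2.12, HRE1, PRT6 and PCO2. Across all 27206 nuclear genes 63.0% were detected, so the members' share was near the background. The median nuclear gene had 4.71 FPKM, and 4 of the 10 genes lay above it.

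**Figure D1:**
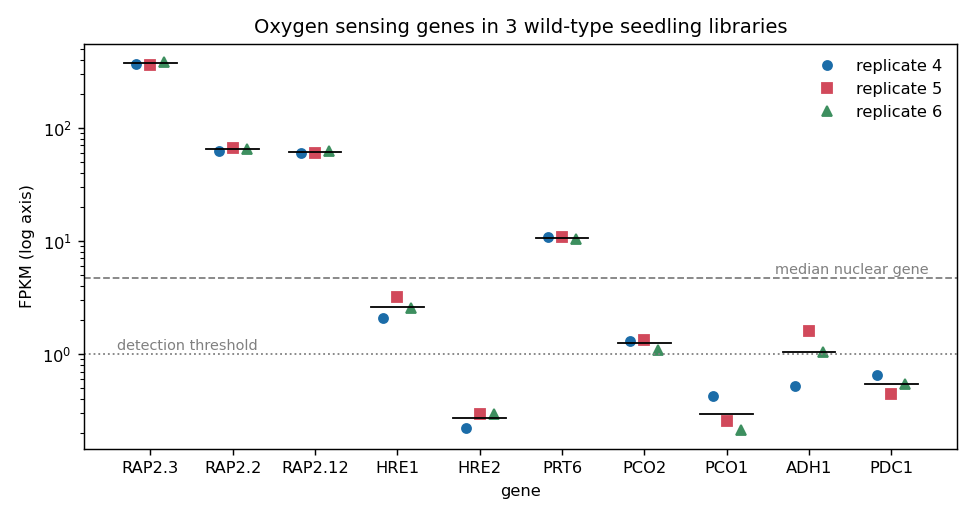
Level of each of the 10 genes in FPKM on a log axis, with 1 point per library and a line at the mean of the 3 libraries; the dashed line is the median nuclear gene (4.71 FPKM) and the dotted line the detection threshold of 1 FPKM. RAP2.3, RAP2.2, RAP2.12 and PRT6 lie above the median nuclear gene in every library, the other 6 genes lie below it, and ADH1 has the widest spread.

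RAP2.3 (AT3G16770, also EBP, chromosome 3, 5705541 to 5707084, TAIR10.1) was the highest of the family. It had 369, 362 and 378 FPKM in replicates 4, 5 and 6, a mean of 370.0 ± 8.01 FPKM (SD, n = 3), and 99.1% of nuclear genes were lower. It was the gene of rank 241 among all 27416. RAP2.3 is an ERF-VII made without a need for low oxygen and also takes part in ethylene response. Its level alone was 74.2 ± 0.556% of the summed FPKM of the 5 ERF-VII genes.

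RAP2.2 and RAP2.12 followed at nearly equal levels. RAP2.2 (AT3G14230, chromosome 3, 4737120 to 4739298), an activator of the low oxygen response, had 62.8, 66.0 and 65.4 FPKM (mean 64.7 ± 1.71). RAP2.12 (AT1G53910, chromosome 1, 20134844 to 20137013), the factor best known as the oxygen sensor that is released from the plasma membrane, had 59.9, 60.3 and 62.7 FPKM (mean 61.0 ± 1.498). Each value of RAP2.2 was above each value of RAP2.12, by a narrow margin, and the difference RAP2.12 minus RAP2.2 was -0.085 ± 0.038 on the log2(FPKM + 1) scale, below 0 in 3 of 3 libraries. Both were lower than RAP2.3, with differences of -2.50 ± 0.052 for RAP2.2 and -2.58 ± 0.020 for RAP2.12, again in 3 of 3 libraries. No test was run on these or the following differences, because with 3 libraries the smallest p of an exact sign-flip test (two-sided) is 0.25.

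The order of RAP2.2 and RAP2.12 carries a doubt that comes from the genome. The first 452 bases of the RAP2.12 gene, which include 54 coding bases and the cysteine codon, are the end of an exact tandem repeat of 12565 bases on chromosome 1. The other copy lies at chr1:20110166-20122730. Of the 6 genes of the files that lie wholly within 1 of the copies, 5 were listed at 0 in every library (AT1G53870, AT1G53880, AT1G53885, AT1G53900 and AT1G53903) and AT1G53890 had 0.233 FPKM. The sources used here do not say how reads with several matches were treated. At the extreme, if all reads of RAP2.12 are set over the 1094 bases of its implied length of 1546 that would be left without the repeat, its level is 86.2 ± 2.117 FPKM and the difference from RAP2.2 turns to 0.41. Of its 50-base words, 20.6% occur elsewhere in the genome, and no such word was shared in the other 9 members.

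The induced members of the family were far lower. HRE1 (AT1G72360, also ERF73, chromosome 1, 27241696 to 27242968), a factor whose gene is itself induced by low oxygen, had 2.09, 3.20 and 2.57 FPKM (mean 2.62 ± 0.553), from 40, 61 and 49 reads. Replicate 5 was highest and replicate 4 lowest. Its exact 95% Poisson intervals, which cover counting error only, ran from 28.6 to 54.5 reads in replicate 4 and from 46.7 to 78.4 in replicate 5, and they overlap. The annotated exons of HRE1 overlap those of P40 (AT1G72370), a ribosomal protein gene on the opposite strand at 373 ± 1.14 FPKM, by 124 bases. At the level of P40 these bases would hold 921 reads, more than the 40, 61 and 49 reads given to the whole of HRE1. The length behind the HRE1 values was 959 of 1273 annotated bases, and which bases were counted is not known.

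HRE2 (AT2G47520, also ERF71, chromosome 2, 19502776 to 19503702), the other induced ERF-VII, had 0.220, 0.294 and 0.294 FPKM (mean 0.269 ± 0.043). These values stand for 3, 4 and 4 reads, 1 read being worth 0.0734 FPKM, and at this depth no difference between the libraries could be seen. HRE1 exceeded HRE2 by 1.501 ± 0.18 on the log2(FPKM + 1) scale, in 3 of 3 libraries. The pseudocount narrows this gap, which was 2.87 with 0.1 FPKM added and 9.73-fold as a plain ratio of means. Together the HRE genes summed to 2.89 ± 0.588 FPKM, against 496 ± 9.37 FPKM for the RAP2 genes, so the RAP2 sum was 172-fold higher (7.01 ± 0.23 on the log2 scale, 3 of 3 libraries).

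The cysteine oxidases showed a similar split between paralogs. PCO2 (AT5G39890, chromosome 5, 15974270 to 15976270) had 1.298, 1.34 and 1.10 FPKM (mean 1.24 ± 0.130), from 32, 33 and 27 reads. PCO1 (AT5G15120, chromosome 5, 4898641 to 4900734) had 0.422, 0.254 and 0.211 FPKM (mean 0.296 ± 0.112), from 10, 6 and 5 reads. Replicate 4 was highest in PCO1, but its Poisson interval of 4.80 to 18.4 reads contains the reads of both other libraries. PCO1 was below PCO2 with a log2 difference of -0.79 ± 0.10 (3 of 3 libraries below 0), or -1.80 with a pseudocount of 0.1.

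PCO3, PCO4 and PCO5, the paralogs that do not need low oxygen for expression, were all detected. PCO5 had 20.9, 21.8 and 20.2 FPKM and made up 51.9 ± 1.81% of the PCO sum of 40.4 ± 2.27 FPKM. PCO4 had 10.09, 9.15 and 7.72 FPKM (22.2 ± 1.85% of the sum) and PCO3 had 9.17, 9.02 and 8.60 FPKM (22.1 ± 0.568%). PCO1 and PCO2 contributed 0.726 ± 0.246% and 3.07 ± 0.161%. The sum of PCO4 and PCO5 was 19.4-fold that of PCO1 and PCO2, 3.61 ± 0.048 higher on the log2 scale, in 3 of 3 libraries.

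**Figure D2:**
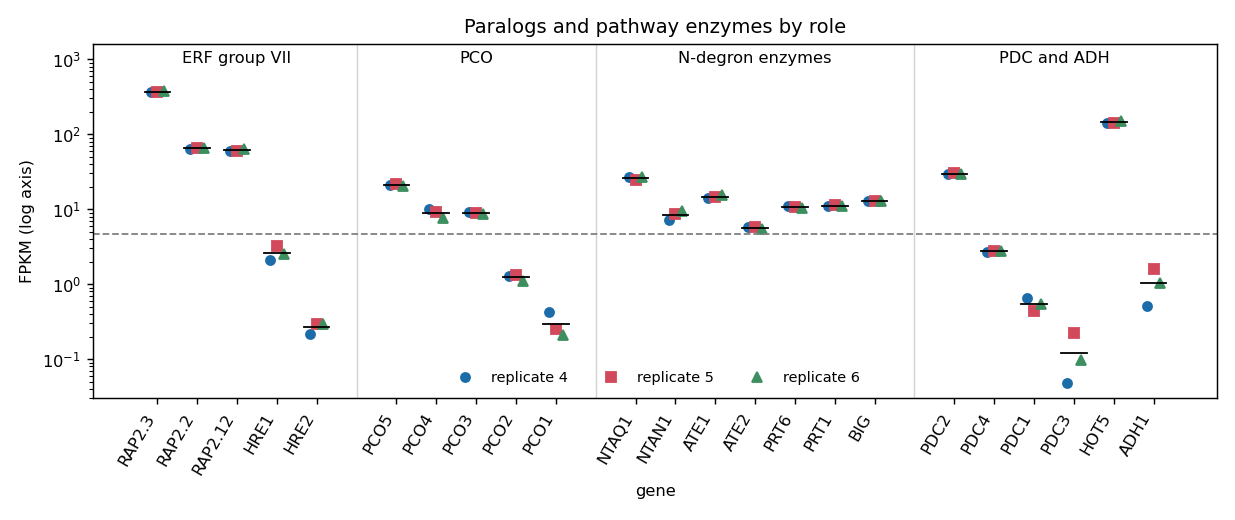
Level in FPKM (log axis) of the genes of 4 groups, with 1 point per library and a line at the mean; the dashed line is the median nuclear gene (4.71 FPKM). HRE1 and HRE2, PCO1 and PCO2, and PDC1 lie well below the highest paralog of their families, and the N-degron enzymes all lie above the median nuclear gene.

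PRT6 (AT5G02310, chromosome 5, 473868 to 482942), the ubiquitin ligase that recognises the arginine added to the oxidised cysteine, had 10.9, 10.7 and 10.5 FPKM (mean 10.7 ± 0.234), from 1362, 1335 and 1302 reads. It lay above 64.5% of nuclear genes and was even between libraries, with a variance of reads 0.677 times their mean. PRT6 and PRT1, a ligase of the same pathway with a preference for bulky aromatic residues (11.1 ± 0.279 FPKM), differed by -0.047 ± 0.046, with both signs among the libraries. The annotated exons of PRT6 overlap MYB3R-5 on the opposite strand by 150 bases, which at the level of that gene would hold 8.61 reads.

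All 11 genes of the N-degron list, which includes VRN2 and ZPR2, were detected, against 63.0% of nuclear genes. Their levels ran from 2.04 FPKM in ZPR2 to 51.7 FPKM in MAP2B. At a threshold of 2 FPKM, 10 of the 11 were detected, against 57.9% of nuclear genes. The median of the list lay 1.29 above that of all nuclear genes on the log2 scale, a difference that fell to 0.035 against nuclear genes at 1 FPKM or more. ATE1, the main arginyl transferase, had 14.7 ± 0.587 FPKM and its paralog ATE2 5.71 ± 0.248 FPKM. The difference PRT6 minus ATE1 was -0.42 ± 0.083 and lay below 0 in 3 of 3 libraries. The methionine aminopeptidases MAP2B, MAP1A and MAP2A, which remove the first methionine from proteins, had 51.7 ± 1.67, 21.8 ± 1.28 and 16.4 ± 0.559 FPKM. BIG, a very large protein that acts together with PRT6, had 12.95 ± 0.108 FPKM. The amidases NTAQ1 and NTAN1, which feed other residues into the same arginine branch, had 26.1 ± 1.53 and 8.40 ± 1.05 FPKM.

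Of 8 genes whose products bind or modify ERF-VII proteins or act upstream of them, all were detected, against 63.0% of nuclear genes. MPK6 (34.4 ± 0.786 FPKM) and MPK3 (33.1 ± 0.612 FPKM), stress-activated kinases, were highest, and HRA1, a trihelix protein that restrains RAP2.12 and is itself induced by low oxygen, was lowest at 2.99 ± 0.226 FPKM. The acyl-CoA binding proteins ACBP1 and ACBP2, which hold RAP2.12 at the plasma membrane in the presence of oxygen, had 10.3 ± 0.178 and 7.65 ± 0.469 FPKM. The ligases SINAT1 and SINAT2 had 20.8 ± 1.69 and 17.4 ± 1.04 FPKM, and the growth kinase TOR had 8.34 ± 0.488 FPKM. The list median lay 1.34 above that of all nuclear genes and 0.085 above that of nuclear genes at 1 FPKM or more.

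ADH1 and PDC1, which carry out ethanol fermentation, were both low. ADH1 (AT1G77120, chromosome 1, 28975255 to 28977417) had 0.517, 1.59 and 1.04 FPKM (mean 1.05 ± 0.535), from 15, 46 and 30 reads. The values of its libraries ran over a 3.07-fold range, the widest of the 10 genes. The 95% Poisson interval of replicate 4 ended at 24.7 reads and that of replicate 5 began at 33.7, so these intervals did not overlap. They cover counting error only, with no allowance for ADH1 being picked as the widest of the 10 genes. The variance of the reads was 7.92 times their mean. Among 1135 nuclear genes with mean reads within 1.5-fold of those of ADH1, the median ratio was 0.903, and 6 genes (0.529%) including ADH1 had a ratio as high. In the other members the ratio ran from 0.0909 in HRE2 to 3.75 in RAP2.3.

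**Figure D3:**
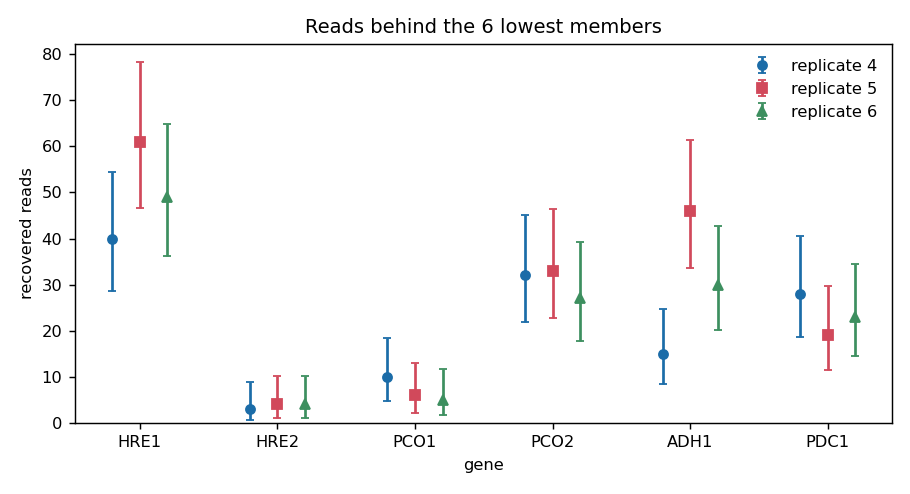
Recovered reads of the 6 lowest members in each library, with exact 95% Poisson intervals (counting error only). The intervals of replicates 4 and 5 do not overlap in ADH1 (15 and 46 reads), while the intervals of all 3 libraries overlap in each of the other 5 genes.

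Several measures stand beside the spread of ADH1. Its annotated exons overlap AT1G77122, on the opposite strand, by 61 bases, and at the level of that gene (25.1, 24.1 and 24.4 FPKM) they would hold 29.8 reads, about as many as ADH1 was given on average. Libraries were directional, but the sources used here do not say whether strand was used in counting, so reads of the pair cannot be told apart there. In HRE1, whose overlap with P40 would hold 921 reads, the libraries gave 40, 61 and 49 reads in all. What the overlap gave to ADH1 was not tested. The length behind the ADH1 values was 1456 of 1595 annotated bases, and which bases were counted is not known. AT1G77122 was highest in replicate 4, where ADH1 was lowest. The summed level of 6 root markers was 8.71, 8.48 and 7.51 FPKM in replicates 4, 5 and 6, and its part in the spread of ADH1 was not tested. Replicate 5 was the highest library in 4 of the 10 members (RAP2.2, HRE1, PCO2 and ADH1) and in 13 of 36 other low oxygen genes above 0, against 34.1% of nuclear genes above 0. Of the same 36 genes, 15 were highest in replicate 4 and 8 in replicate 6. Among the 22243 nuclear genes above 0, 7034 were highest in replicate 4 and 7616 in replicate 6.

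PDC1 (AT4G33070, chromosome 4, 15952257 to 15954803) had 0.654, 0.444 and 0.538 FPKM (mean 0.545 ± 0.105), from 28, 19 and 23 reads. Here replicate 4 was highest and replicate 5 lowest, the opposite of ADH1. The difference ADH1 minus PDC1 was 0.37 ± 0.48, smaller than its spread, with 2 libraries above 0 and 1 below. It was 0.62 without replicate 4, 0.14 without replicate 5 and 0.73 with a pseudocount of 0.1. PDC2, a paralog, had 29.9, 30.3 and 29.2 FPKM and held 89.7 ± 0.168% of the summed level of the 4 PDC genes, and it exceeded PDC1 by 4.32 ± 0.11 in 3 of 3 libraries. PDC4 had 2.74 ± 0.040 FPKM and PDC3 0.122 ± 0.088 FPKM. HOT5, the class III alcohol dehydrogenase that breaks down S-nitrosoglutathione, had 145 ± 3.72 FPKM, 138-fold more than ADH1 (6.19 ± 0.39 on the log2 scale, 3 of 3 libraries).

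**Figure D4:**
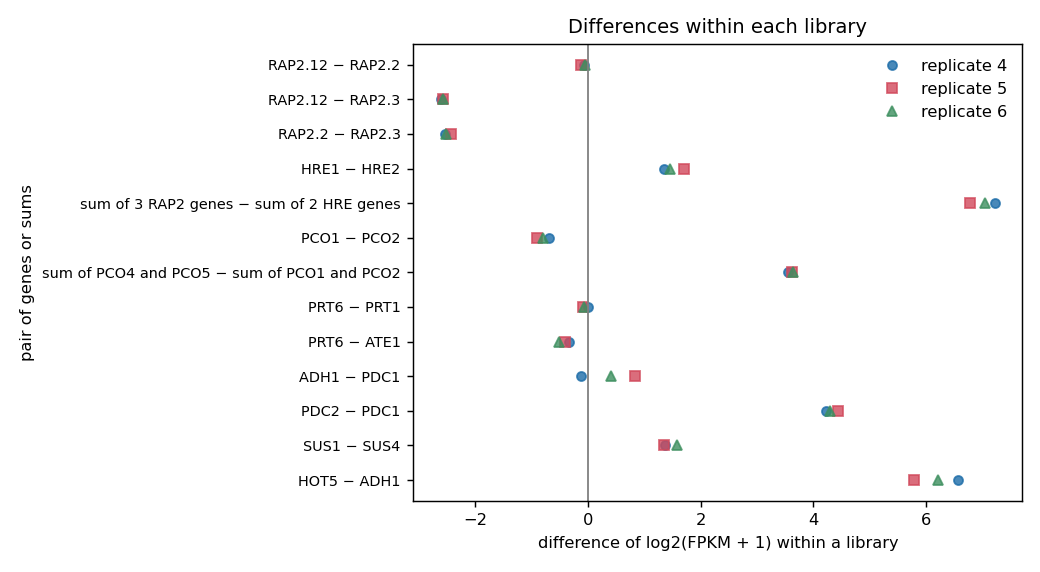
Differences of log2(FPKM + 1) between 13 pairs of genes or sums of genes, with 1 point per library. The points of ADH1 minus PDC1 and of PRT6 minus PRT1 fall on both sides of 0, and in each of the other 11 pairs the 3 libraries lie on one side.

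In the order of mean levels, most neighbours were apart in every library. From the top the order was RAP2.3, RAP2.2, RAP2.12, PRT6, HRE1, PCO2, ADH1, PDC1, PCO1 and HRE2. The places of RAP2.2 and RAP2.12 are in doubt because of the repeat, and with RAP2.12 set over the bases outside it (86.2 FPKM) they change places. The library values overlapped between PCO2 and ADH1, between ADH1 and PDC1, and between PCO1 and HRE2, so these neighbours did not differ beyond their spread. PDC1 and PCO1 were apart by a small margin, with 0.444 FPKM as the lowest value of PDC1 and 0.422 as the highest of PCO1. The exact 95% Poisson intervals of these values, 0.267 to 0.694 and 0.202 to 0.776 FPKM, overlap, so their order is within counting error there.

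Other genes of fermentation and of sucrose breakdown were mixed. Of 11 genes 9 were detected, against 63.0% of nuclear genes. The list median lay 0.092 above that of all nuclear genes on the log2 scale, or 0.054 without replicate 5, and its difference turned to -1.17 against nuclear genes at 1 FPKM or more. ALDH2B4, a mitochondrial aldehyde dehydrogenase, had 127 ± 0.406 FPKM, and the alanine aminotransferases ALAAT1 and ALAAT2 had 41.1 ± 2.14 and 7.82 ± 0.600 FPKM. Lactate dehydrogenase LDH1 had 5.07 ± 0.298 FPKM and ALDH2B7 3.26 ± 0.0986 FPKM. The sucrose synthases SUS1 and SUS4, known to be induced by low oxygen, had 1.93 ± 0.189 and 0.0848 ± 0.0277 FPKM. The gap between them was 1.43 ± 0.13 on the log2(FPKM + 1) scale, in 3 of 3 libraries, and 3.46 with a pseudocount of 0.1. PDC3 and SUS4 were the genes not detected.

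Beyond the members, 39 genes known to rise in low oxygen were examined, and they were spread over a wide range. They include HRA1, SUS1, SUS4 and PDC2 named above. Of the 39 genes 27 were detected, against 63.0% of nuclear genes, and the list median lay below that of all nuclear genes by a log2 difference of -0.80. The 5 highest were AT1G74940 (49.97 ± 0.645 FPKM), AT1G26270 (43.5 ± 1.51), PDC2 (29.8 ± 0.537), the phloem protein gene PP2-A13 (28.5 ± 1.13) and AT4G27450 (28.0 ± 0.528). The 3 lowest, AT2G17850, AT3G29970 and AT5G10040, were at 0 in every library, which by their annotated lengths allows up to 0.210, 0.263 and 0.346 FPKM (3 reads).

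**Figure D5:**
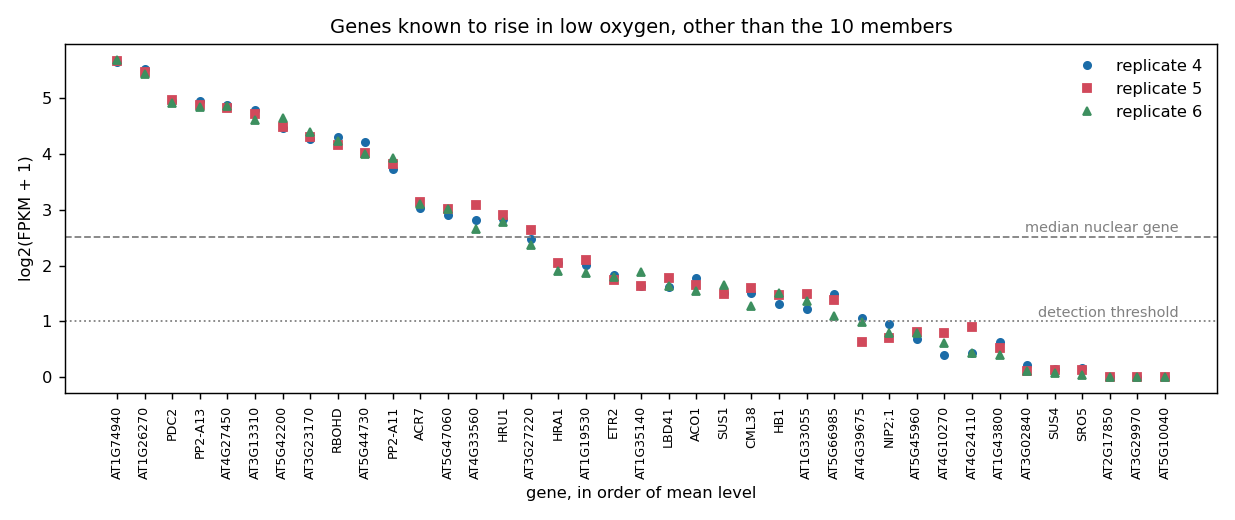
Level of 39 further genes known to rise in low oxygen, on the log2(FPKM + 1) scale, ordered by mean, with 1 point per library; the dashed line is the median nuclear gene and the dotted line the detection threshold of 1 FPKM. The genes fall in a steady slope from 49.97 FPKM to 3 genes at 0, and 27 of the 39 are detected.

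A promoter motif known for ERF-VII binding, the hypoxia-responsive promoter element, was searched in a looser form, AAACCA followed by any 3 bases and GC, on both strands of the 500 bases before each gene start in TAIR10.1. It was found in 431 of 26709 promoters (1.61%) and in 1 of the 10 members. This was ADH1, 166 bases before the gene start. Its match has AAA at the 3 free positions. The stricter element was not searched for, so this is a match to the looser form only and is not shown to be the element itself. The match is in capitals with its flanks, on the strand of the gene, at chr1:28975069-28975118 (plus strand).
ADH1: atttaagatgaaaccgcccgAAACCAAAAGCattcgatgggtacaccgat

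A match to letters is a description of the window and not a binding site. The GCC box, GCCGCC, a motif of the wider ERF family, was in 4.11% of all promoters and in none of the 10 members.

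The nuclear genes closest in level to RAP2.12 and ADH1 were found by the mean absolute difference of log2(FPKM + 1) over the 3 libraries. For RAP2.12 they were AT3G25470, TIC110 and RLM3, with differences of 0.013, 0.014 and 0.016. For ADH1 they were CLE22, RL5 and AT5G44306, with differences of 0.037, 0.054 and 0.072. With 3 libraries of 1 group this measure reflects the level and little else.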

How the data were processed

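The files hold 1 value per gene and library. Per the submitters' processing notes, TopHat2 2.0.9, Cufflinks 2.1.1 and the build TAIR10 were used, with no role given. The values, deposited by the authors without a unit, were taken as FPKM. They may instead be RPKM from whole reads, since 88.3% of nuclear genes above 0 in every library gave whole reads at 1 length. Per the labels' protocols, ribosomal RNA was removed and libraries were directional. Not given in the sources used here are the annotation, the strand setting and how multiply matching reads were handled.

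Library totals were found from genes at their annotated length, and reads as the whole numbers (tolerance 0.0001 reads plus 1e-09 of the reads) that fit all 3 libraries at exactly 1 length between 0.7 and 1.02 times the annotated one, as in 18096 of 20497 nuclear genes above 0 (88.3%) and in all 10 members. Tested on simulated data, 4625 of 4640 genes gave 1 length, and all 4625 the exact reads. Every simulated gene had whole reads at 1 length within that range. The simulation therefore does not cover real genes whose values were formed otherwise. Reads served for depth and spread only. With 1 group, no model was fitted.

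Levels are means ± SD over 3 libraries. Differences are on log2(FPKM + 1), which understates those of low genes. The genes and lists were chosen with earlier results of these data known. All 10 members were named, with the genes of 4 short lists, the 5 highest and 3 lowest of the low oxygen list (genes that overlap members or lie in the repeat were named after their values were seen), and 3 genes most alike for RAP2.12 and ADH1. Names, coordinates and sequences are from RefSeq, TAIR10.1. Alternatives were another pseudocount, thresholds of 0.5 and 2 FPKM, a common sum, another background and each library left out. Python 3.11.15, numpy 2.4.6, pandas 2.3.3 and scipy 1.17.1 were used.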

Additional observations from a re-analysis of the deposited data

How the results depend on the processing

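Of 123 alternatives of 24 results, 103 stayed within 1 SD of the reported value (counts within 1.5 times). For the gene differences, part of this was fixed in advance. Leaving out 1 library cannot move such a mean by 1 SD. The common sum changed little, because the nuclear sums ran only from 730716 to 732000. The number 103 is thus not a measure of robustness. With a pseudocount of 0.1 in place of 1, differences that involve low genes widened in the same direction, to 2.87 for HRE1 minus HRE2, 7.39 for the RAP2 sum minus the HRE sum, -1.80 for PCO1 minus PCO2, 4.202 for PCO4 and PCO5 minus PCO1 and PCO2, 5.55 for PDC2 minus PDC1, 3.46 for SUS1 minus SUS4 and 7.10 for HOT5 minus ADH1, since less is added to low values. The list medians became 0.91 (cysteine oxidase paralogs), 1.45 (N-degron pathway), 1.49 (ERF-VII partners) and -1.01 (low oxygen response). Against nuclear genes at 1 FPKM or more, a higher background by construction, they were -0.45 and, for fermentation and sucrose, -1.17, both with the sign turned, and 0.035, 0.085 and -2.05 for the N-degron, partner and low oxygen lists. The low oxygen median ran from -0.80 to -0.75 with 1 library left out. With RAP2.12 set over the bases outside its repeat, an alternative chosen after seeing the data, RAP2.12 minus RAP2.2 turned to 0.41 and RAP2.12 minus RAP2.3 became -2.09. No paired analysis was possible because there is 1 group, so no library has a partner in another; the gene differences themselves were taken within each library. Depth limits HRE2 and PCO1, with at most 10 reads per library.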
